A study of Mus musculus with 8 samples.

Results

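The genes described here are 10 mouse genes of purinergic and adenosine signalling: the ATP-gated channels P2rx4 and P2rx7, the nucleotide receptors P2ry2, P2ry6 and P2ry14, the adenosine receptors Adora2a and Adora2b, and the enzymes Entpd1, Nt5e and Ada. They were picked by gene symbol, by a rule that names no measured value but was written with earlier results of these data known, and make up 10 of the 55487 genes in the deposited table. RNA was sequenced from J774A.1 cells, a mouse macrophage cell line, to ask how ursodeoxycholic acid (UDCA), a secondary bile acid, changes the transcriptome of macrophages activated by lipopolysaccharide (LPS). Of the 8 libraries, 4 came from cells given LPS at 1 μg/mL and 4 from cells given the same LPS together with UDCA at 1 mM, in each case for 24 h. LPS, a cell wall component of Gram-negative bacteria, was therefore present in both groups, and cells without LPS were not analysed here. All libraries came from a single cell line, and the labels do not say that replicates were separate cultures, so p-values measure only the spread between these samples, which may be technical.

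ATP, ADP, UTP and UDP leave stressed or activated cells through channels and vesicles and act on neighbouring cells through P2 receptors. P2X receptors are cation channels opened by ATP, whereas P2Y receptors couple to G proteins. Enzymes on the cell surface shorten these nucleotides to AMP and then to adenosine, which acts on its own G protein-coupled receptors until it is deaminated or taken up. In macrophages P2rx7 is known as a trigger of the NLRP3 inflammasome, and Adora2a and Adora2b are known to raise cyclic AMP and to restrain or reshape cytokine release.

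Expression was given as TPM, a transcript abundance in which reads per gene are divided by gene length and scaled within each library, so levels of different genes can be compared. TPM keeps no record of read number, so the depth of the libraries is unknown. The TPM columns summed to 973190 to 977485 in the LPS group and to 958918 to 962737 in the LPS + UDCA group, and 0 of 28 pairs of libraries held identical values. Of 10 macrophage markers 9 reached a mean of 1 TPM, while Mertk was listed at 0 in all 8 libraries. None of the fibroblast, epithelial and lymphocyte markers (6 of each) exceeded 0.47 TPM in any library, and 3 of the 6 in each list, among them Col3a1, Epcam and Cd3e, were listed at 0 throughout. Of 6 neutrophil and mast cell markers, Ly6g, Cpa3 and Kit were listed at 0, whereas S100a8 stood at 17.25 to 21.17 TPM with LPS and 2.47 to 9.03 TPM with LPS + UDCA, and S100a9 at 1.07 to 4.22 TPM and 0 to 0.50 TPM.

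In LPS-stimulated cells 6 of the 10 genes were expressed at several TPM. P2ry6 had the highest mean level, 13.7 TPM, and its 4 libraries lay above those of Adora2b, the next gene. Adora2b (11.2 TPM), P2ry2 (10.8 TPM), P2rx4 (10.4 TPM) and Ada (9.98 TPM) followed in an order in which no gene was separated from the next one. P2rx7 came below them at 6.57 TPM, with no overlap with Ada. Entpd1 and Adora2a stayed below 1 TPM in every library, Nt5e did not exceed 0.05 TPM, and P2ry14 was listed at 0 in all 8 libraries.

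With UDCA the order was different. P2rx4 ranked first at 15.6 TPM, followed by P2ry2 (6.49 TPM), Ada (4.51 TPM), P2rx7 (2.93 TPM) and Adora2b (1.24 TPM), and each of the first 4 was separated from the next by all libraries. P2ry6, first under LPS alone, stood at 0.945 TPM, and its libraries overlapped with those of Adora2b and Entpd1.

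**Figure D1:**
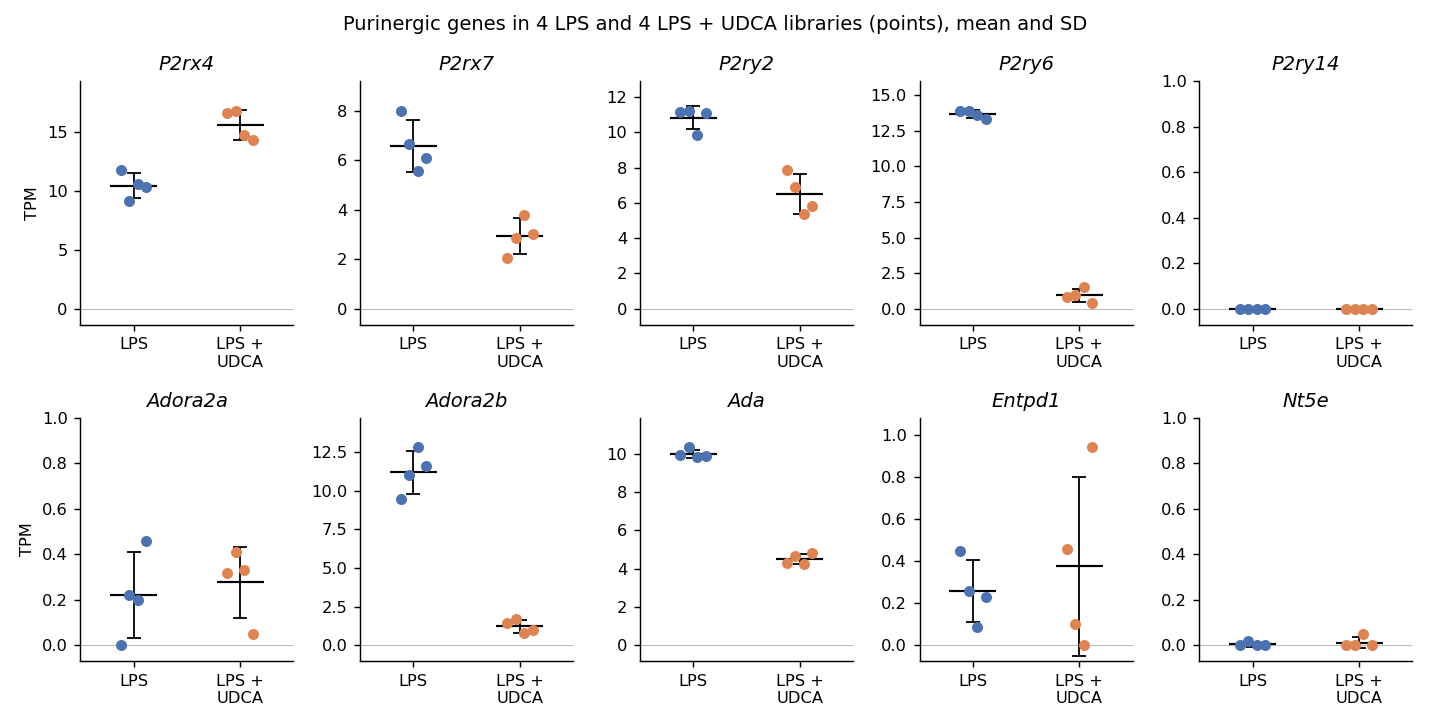
TPM of the 10 genes in each of the 4 LPS libraries (blue) and 4 LPS + UDCA libraries (orange), each panel on its own scale. Horizontal lines are group means and error bars are SD. The groups do not overlap for P2rx4, P2rx7, P2ry2, P2ry6, Adora2b and Ada, with P2rx4 the one that is higher with UDCA, and the other 4 genes stay below 1 TPM.

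P2rx4, an ATP-gated channel found largely on lysosomes of macrophages, was the gene that rose. Its levels were 11.72, 9.14, 10.55 and 10.28 TPM in LPS libraries 1 to 4 and 16.57, 16.78, 14.73 and 14.28 TPM in LPS + UDCA libraries 1 to 4. All 4 UDCA-treated libraries were above all 4 LPS libraries. Its mean went from 10.4 ± 1.06 to 15.6 ± 1.27 TPM (SD, n = 4 per group), a log2 fold change of 0.54 on the log2(TPM + 1) scale (SE 0.085, 95% interval 0.348 to 0.732, adjusted p = 0.00033 by limma with Benjamini-Hochberg adjustment over 11796 genes). The exact permutation test on this gene gave p = 0.029 (2-sided), the smallest value that 4 against 4 libraries allow, and the same p was reached by each gene below whose groups did not overlap. The rise stayed under the fold change of 2 that the study used as its threshold.

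P2rx7, the channel of low ATP affinity whose opening leads to potassium efflux, moved the other way. It stood at 8, 6.64, 5.55 and 6.09 TPM with LPS and at 2.05, 2.85, 3.80 and 3.03 TPM with LPS + UDCA. Every UDCA-treated library was below every LPS library, the nearest being LPS library 3 and LPS + UDCA library 3. The mean fell from 6.57 ± 1.05 to 2.93 ± 0.718 TPM (55.4% lower; log2 fold change −0.95, SE 0.152, 95% interval −1.30 to −0.61, adjusted p = 0.00035 by limma). On the scale of TPM alone this was a ratio of 2.24, but on the log2(TPM + 1) scale, which understates changes of genes with few TPM, it lay just inside the threshold of 2. In RNA from whole cultures, fewer cells that express a gene and less RNA of it per cell cannot be told apart.

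P2rx7 and P2rx4 are neighbours on mouse chromosome 5 and are transcribed in the same direction. In GENCODE M21 on GRCm38, P2rx7 spans chr5:122643911-122691432 and P2rx4 chr5:122707544-122729738, both on the plus strand, with 16.1 kb between them. Their promoters are shown because this adjacent pair moved in opposite directions, and that of Adora2b because it is the gene with the largest fall among the promoters at hand. Each sequence is the 250 bases before a RefSeq start site on GRCm38, read 5′ to 3′ on the strand of the gene, and capitals mark matches to searched motifs on either strand.
P2rx7 promoter, chr5:122643677-122643926, plus strand: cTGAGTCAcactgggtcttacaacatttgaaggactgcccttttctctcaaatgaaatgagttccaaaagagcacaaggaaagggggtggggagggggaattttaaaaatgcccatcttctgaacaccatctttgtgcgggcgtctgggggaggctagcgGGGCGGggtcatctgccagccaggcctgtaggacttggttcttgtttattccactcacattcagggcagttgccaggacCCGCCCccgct
P2rx4 promoter, chr5:122707294-122707543, plus strand: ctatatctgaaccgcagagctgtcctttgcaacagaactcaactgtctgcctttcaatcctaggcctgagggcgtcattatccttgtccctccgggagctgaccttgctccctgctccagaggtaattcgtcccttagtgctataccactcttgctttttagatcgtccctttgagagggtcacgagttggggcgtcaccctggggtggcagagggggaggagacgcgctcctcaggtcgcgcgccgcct
Adora2b promoter, chr11:62248734-62248983, plus strand: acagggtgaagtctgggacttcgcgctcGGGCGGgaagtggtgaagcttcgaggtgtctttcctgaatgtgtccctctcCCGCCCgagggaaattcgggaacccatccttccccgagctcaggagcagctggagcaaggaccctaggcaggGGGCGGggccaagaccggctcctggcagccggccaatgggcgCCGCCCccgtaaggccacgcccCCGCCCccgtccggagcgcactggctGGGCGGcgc

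The motifs searched were the GC box (GGGCGG), AP-1 (TGANTCA), the cyclic AMP response element (TGACGTCA), the hypoxia response core (ACGTG), the PU box (GAGGAA) and the κB motif, each on both strands. A further P2rx7 window at another RefSeq start site (chr5:122650133-122650382) is not printed and held 0 matches to the 6 motifs. The printed P2rx7 window held 2 GC boxes and 1 AP-1 match, the Adora2b window 6 GC boxes, and the P2rx4 window 0 matches to the 6 motifs. Among 32851 promoter windows of the same length, 32.7% held a GC box, 6.75% an AP-1 match, 1.55% a cyclic AMP response element, 16.6% the hypoxia core, 23.3% a PU box and 3.90% a κB match. GC content was 53.6% for P2rx7, 57.2% for P2rx4 and 69.6% for Adora2b, against a median of 52.4% over all windows. These matches describe letters in the windows and do not show that a factor binds there.

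P2ry6, the receptor for UDP, fell the most among these 10 genes. The LPS libraries held 13.9, 13.9, 13.62 and 13.29 TPM and the LPS + UDCA libraries 0.84, 0.99, 1.53 and 0.42 TPM. The lowest LPS library was far above the highest UDCA-treated one. The mean fell from 13.7 ± 0.290 to 0.945 ± 0.459 TPM, 93.1% lower (log2 fold change −2.95, SE 0.156, 95% interval −3.30 to −2.59, adjusted p = 3.0e-07 by limma).

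P2ry2, the receptor for ATP and UTP that helps phagocytes move toward dying cells, fell by a smaller amount. It measured 11.13, 11.22, 9.86 and 11.07 TPM with LPS and 7.88, 6.89, 5.37 and 5.83 TPM with LPS + UDCA. No UDCA-treated library reached the LPS range. The mean went from 10.8 ± 0.643 to 6.49 ± 1.12 TPM, 40.0% lower (log2 fold change −0.67, SE 0.108, 95% interval −0.911 to −0.425, adjusted p = 0.00038 by limma), which was short of the fold change of 2. P2ry14, the receptor for UDP-glucose, had no value above 0 to compare.

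P2ry6 (chr7:100937630-100974649) and P2ry2 (chr7:100996568-101012866) also lie side by side, both on the minus strand and 21.9 kb apart. Around both pairs, the tested genes with any part within 100 kb of the pair, chosen after their values were seen, changed by varied amounts. Next to P2rx7 and P2rx4 the log2 fold changes were 0.70 for Ift81 (adjusted p = 0.0014 by limma), −0.22 for Camkk2 (adjusted p = 0.015) and −1.002 for Anapc5 (adjusted p = 3.8e-07). The change of Anapc5 was close to that of P2rx7 (−0.95). Next to P2ry6 and P2ry2 they were 0.34 for Fam168a, which did not pass the FDR threshold (adjusted p = 0.064 by limma), −0.48 for Relt (adjusted p = 0.0019) and −0.28 for Fchsd2 (adjusted p = 0.014). At neither locus did all tested genes share a direction and size.

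**Figure D2:**
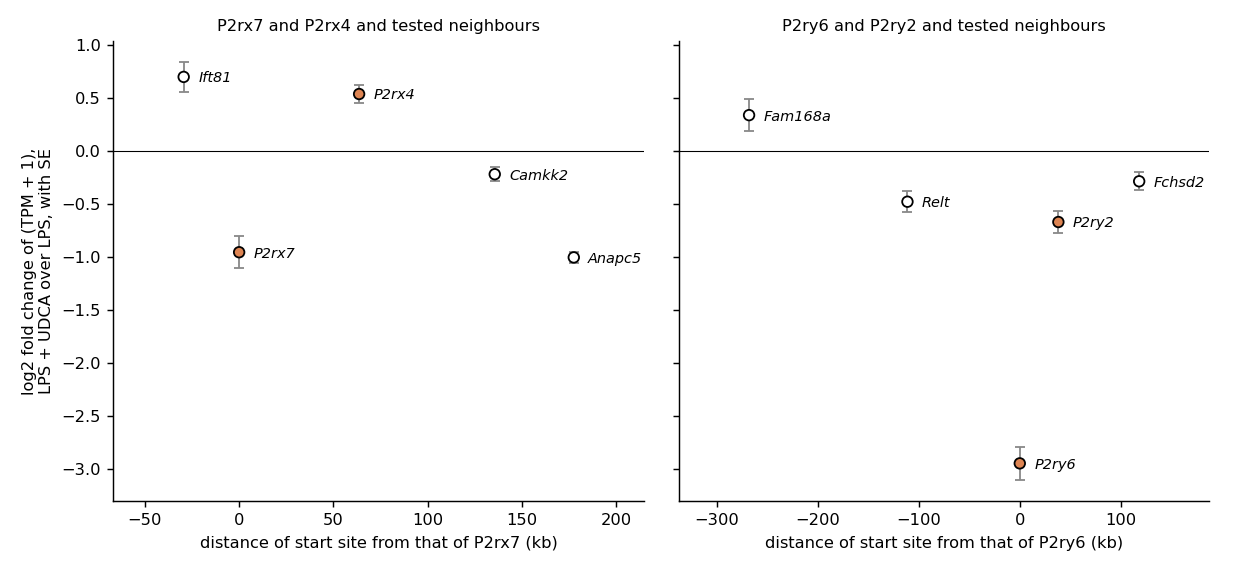
Log2 fold change of TPM + 1 (LPS + UDCA over LPS, points with SE) against the distance in kb of each start site from that of P2rx7 (left) or P2ry6 (right), with the genes described here in orange and other tested genes with any part within 100 kb of the pair in white, so that start sites can lie farther away. P2rx7 lies at −0.95 and P2rx4 at 0.54, and P2ry6 at −2.95 is far below all genes around it.

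The make-up of the P2 receptors within a library was compared, as each receptor's percentage of the summed TPM of the 5 P2 receptors. The shares have a common sum, so that of P2rx4 also grows when P2ry6, P2rx7 and P2ry2 fall. These comparisons, and the ratios below, reuse the values above and are not separate evidence. The sum itself went from 41.5 ± 2.25 TPM (range 39.6 to 44.8) to 25.96 ± 1.86 TPM (range 23.6 to 27.5). P2rx4 held 26.19, 22.35, 26.65 and 25.24% in the LPS libraries and 60.61, 61.0, 57.92 and 60.61% in the LPS + UDCA libraries, so that it went from about as much as P2ry2 to the larger part of the sum. Its share differed by 34.9 percentage points (exact permutation test, p = 0.029, 0.041 after Benjamini-Hochberg adjustment over the 10 quantities tested). Of these 10 quantities 7 passed, each at the smallest p the design allows. The adjusted value of 0.041 is thus set by how many quantities reached that p. Some of them rest on the same genes, so passing at 0.05 depends on which quantities were included.

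P2ry6 made the opposite change. It held 31.06, 33.99, 34.41 and 32.63% with LPS and 3.07, 3.60, 6.02 and 1.78% with LPS + UDCA, a mean difference of −29.4 percentage points (exact permutation test, adjusted p = 0.041). The shares of P2rx7 (15.8 ± 1.67% to 11.4 ± 3.21%) and P2ry2 (26.1 ± 1.40% to 24.9 ± 3.15%) overlapped between groups and did not pass (exact permutation test, adjusted p = 0.071 and 0.67). Without LPS + UDCA library 3, the share of P2rx7 passed at −5.53 points (exact permutation test, adjusted p = 0.036).

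The paralogue pairs were also set against each other as log2 ratios of TPM + 1 in each library. P2rx7 over P2rx4 went from −0.60 ± 0.18 to −2.09 ± 0.35, a difference of −1.49 (exact permutation test, adjusted p = 0.041). P2ry2 over P2ry6 went from −0.31 ± 0.08 to 1.96 ± 0.44, a difference of 2.28 (exact permutation test, adjusted p = 0.041). In both pairs the order of the groups held in all libraries, with no overlap.

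**Figure D3:**
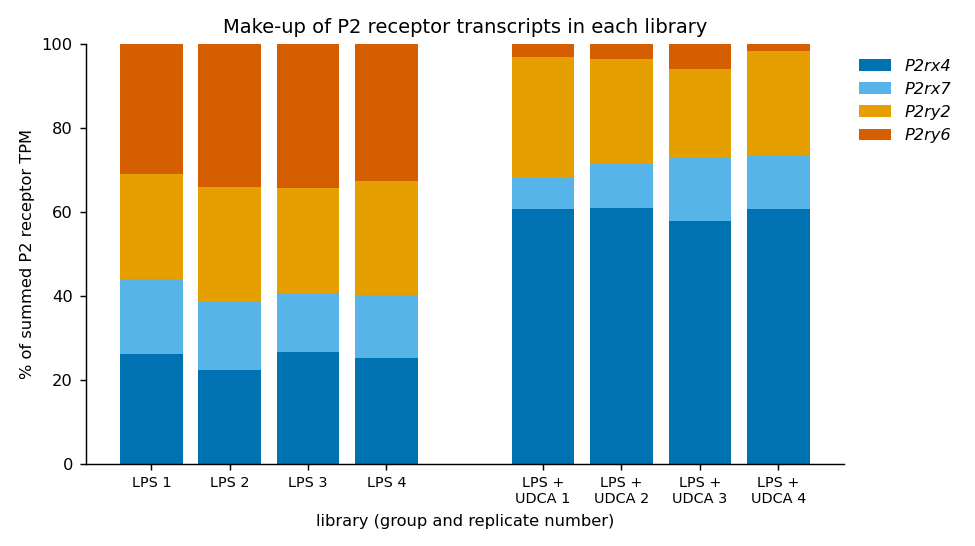
Percentage of the summed P2 receptor TPM held by P2rx4, P2rx7, P2ry2 and P2ry6 in each library (1 stacked bar per library; P2ry14 was at 0). The P2rx4 part grows from 22.3 to 26.7% of the bar with LPS to 57.9 to 61.0% with LPS + UDCA, while the P2ry6 part shrinks from 31.1 to 34.4% to 1.78 to 6.02%.

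Of Adora2a and Adora2b, Adora2b was the one expressed at a level that could be tested. Adora2b, the low-affinity receptor (chr11:62248984-62266453, plus strand), stood at 9.43, 10.99, 12.78 and 11.55 TPM with LPS and at 1.45, 1.69, 0.80 and 1.02 TPM with LPS + UDCA. The groups were far apart. Its mean fell from 11.2 ± 1.39 to 1.24 ± 0.404 TPM, 88.9% lower (log2 fold change −2.45, SE 0.144, 95% interval −2.78 to −2.13, adjusted p = 5.6e-07 by limma).

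Adora2a, the high-affinity receptor that couples to adenylyl cyclase (chr10:75316877-75334784, plus strand), read 0, 0.22, 0.20 and 0.46 TPM with LPS and 0.32, 0.41, 0.33 and 0.05 TPM with LPS + UDCA. These ranges overlapped, and with no filter on low values its log2 fold change was 0.07 (95% interval −0.23 to 0.37, adjusted p = 0.70 by limma), on a scale that compresses changes at such low levels. As a percentage of the 2 receptors together, Adora2a went from 1.83 ± 1.58 to 17.9 ± 10.1% (exact permutation test, adjusted p = 0.041), with Adora2a itself never above 0.46 TPM and Adora2b lower. This comparison lost its call without any one of the LPS libraries (exact permutation test, adjusted p = 0.071 to 0.082). The shares still did not overlap then (LPS at most 3.83%, LPS + UDCA at least 4.67%). With groups of unequal size, another arrangement of the libraries gives a larger difference than the observed one. The log2 ratio of Adora2a to Adora2b, on TPM + 1, went from −3.33 ± 0.17 to −0.80 ± 0.24 (exact permutation test, adjusted p = 0.041). With Adora2a this low, the ratio on TPM + 1 follows the fall of Adora2b and is not a separate result.

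The enzymes fell into those that were barely expressed and Ada. Entpd1, or CD39, which converts extracellular ATP and ADP to AMP (chr19:40612366-40741602, plus strand), read 0.45, 0.26, 0.09 and 0.23 TPM with LPS and 0.46, 0.10, 0 and 0.94 TPM with LPS + UDCA. The LPS + UDCA libraries lay on both sides of the LPS range, and with no filter the log2 fold change was 0.09 (95% interval −0.39 to 0.56, adjusted p = 0.76 by limma). Nt5e, or CD73, which converts AMP to adenosine (chr9:88327197-88372092, plus strand), was listed at 0 in 6 of 8 libraries, with 0.02 TPM in LPS library 2 and 0.05 TPM in LPS + UDCA library 3.

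Ada, which deaminates adenosine to inosine (chr2:163726584-163750239, minus strand), had replicates that lay close together. It stood at 9.92, 10.32, 9.83 and 9.85 TPM with LPS and at 4.28, 4.64, 4.27 and 4.84 TPM with LPS + UDCA. The groups were well separated. The mean fell from 9.98 ± 0.230 to 4.51 ± 0.281 TPM, 54.8% lower (log2 fold change −0.997, SE 0.0655, 95% interval −1.15 to −0.85, adjusted p = 1.1e-06 by limma), and was marginally short of the fold change of 2 on the log2(TPM + 1) scale.

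With Nt5e near 0, the log2 ratio of Nt5e to Ada, on TPM + 1, went from −3.45 ± 0.02 to −2.44 ± 0.10 as Ada fell (exact permutation test, adjusted p = 0.041). The log2 ratio of Entpd1 to Nt5e overlapped between groups (0.32 ± 0.17 and 0.39 ± 0.45, exact permutation test, adjusted p = 0.71).

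At the fold change of 2 with FDR under 0.05, 2 of the 10 genes were called lower (P2ry6 and Adora2b), where 8.44% of all 11796 genes tested were, and 0 were called higher, where 8.71% were. At FDR under 0.05 alone, 5 genes were lower (P2ry6, Adora2b, Ada, P2rx7 and P2ry2), with 32.3% of all genes tested, and 1 was higher (P2rx4), with 40.2%. The same 5 genes had all LPS + UDCA libraries below all LPS libraries, as did 29.9% of all genes, and P2rx4 had them all above, as did 37.0%. The remaining 4 genes had means under 1 TPM and were not tested. The call at a fold change of 2 depended on scale for Ada and P2rx7. With a pseudocount of 0.1 in place of 1 their log2 fold changes were −1.13 and −1.16, and with median-of-ratios scaling −1.09 and −1.04, which brought the number called lower to 4. That scaling moved the median log2 fold change of all genes tested from 0.08 to −0.02, and P2rx4 was still higher, at 0.44. Requiring 1 TPM in every library removed P2ry6 and Adora2b from the test, since their UDCA-treated libraries fell below it, and left 0 called.

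The other genes of the pathway were described by 5 lists, holding 102 genes in all, without a test of the lists. The counts below stand beside 8.44% of all genes tested called lower and 8.71% called higher. At FDR under 0.05 alone, 32.3% of all genes tested were lower and 40.2% higher. Among 13 other nucleotide and adenosine receptors, 3 were expressed enough to test, of which 1 was called higher and 1 lower at the fold change of 2. P2rx5, another ATP-gated channel, stood at 0.36, 0.53, 0.42 and 0.50 TPM with LPS and at 2.85, 3.02, 2.90 and 2.86 TPM after UDCA was added (log2 fold change 1.43, SE 0.106, adjusted p = 2.3e-06 by limma). Adora3, the Gi-coupled adenosine receptor, stood at 3.31, 3.22, 2.66 and 3.27 TPM with LPS and at 0.45, 0.16, 0.40 and 0.18 TPM after UDCA was added (log2 fold change −1.67, SE 0.131, adjusted p = 3.3e-06 by limma). Adora3 shares exons with Tmigd3, and 23.9% of its 31-base words occur in other genes, so its reads could be split between them. P2ry10b, named after its values were seen, was the other tested receptor, with a log2 fold change of 0.67 (adjusted p = 0.0059 by limma) and overlapping groups. P2ry1, P2ry10, P2ry13 and Adora1, named for this, were listed at 0 in all 8 libraries.

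Of 17 other enzymes of extracellular nucleotides and related hydrolases, 7 were tested, with 1 called higher and 1 called lower. Entpd5, a nucleoside diphosphatase of the endoplasmic reticulum, rose from 5.68 ± 0.161 to 15.5 ± 0.711 TPM (log2 fold change 1.30, adjusted p = 1.1e-07 by limma). Bst1, an ADP-ribosyl cyclase at the cell surface, fell from 17.3 ± 1.83 to 7.74 ± 1.32 TPM (log2 fold change −1.08, adjusted p = 3.1e-05 by limma). Its exons overlap those of Fbxl5 on the opposite strand, and whether reads were counted by strand is not given in the sources used here. The median log2 fold change of the 7 was −0.27, beside 0.08 for all genes tested.

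Of 14 channels and transporters of ATP release, 10 were tested, 2 were called lower and 0 higher, and the median was −0.43. Gja1, which encodes the gap junction protein connexin 43, stood at 13.68, 11.38, 10.94 and 13.8 TPM with LPS and at 1.25, 2.01, 1.24 and 1.66 TPM after UDCA was added (log2 fold change −2.41, SE 0.125, adjusted p = 2.6e-07 by limma). Calhm2, a large-pore channel, went from 4.25 ± 0.798 to 1.53 ± 0.251 TPM (log2 fold change −1.05, adjusted p = 0.0001 by limma), and its exons overlap Pdcd11 on the opposite strand. Slc17a9 and Panx1 were named after their values were seen. Slc17a9, the vesicular nucleotide transporter, had a log2 fold change of −0.84 (adjusted p = 0.00015 by limma), and Panx1, the pannexin channel opened by caspases, had one of −0.19 that did not pass (95% interval −0.59 to 0.20, adjusted p = 0.35 by limma).

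Of 27 genes of adenosine uptake and purine salvage, 23 were tested, 4 were called lower and 0 higher. At FDR alone 13 were lower and 5 higher, and the median was −0.47. Slc28a2, a sodium-coupled carrier of purine nucleosides, had the largest fall of the 5 lists. It measured 38.9, 39.19, 41.47 and 41.05 TPM with LPS and 2.38, 2.52, 2.46 and 2.09 TPM after UDCA was added (log2 fold change −3.61, SE 0.0624, adjusted p = 6.6e-10 by limma). Of its 31-base words, 46.3% also occur in its near copy Gm14085 or in other genes, so the split of reads between the copies is uncertain.

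The other genes called lower in this list were salvage enzymes. Pnp, which splits inosine and guanosine, went from 79.2 ± 5.08 to 31.6 ± 4.60 TPM (log2 fold change −1.31, adjusted p = 2.4e-06 by limma), with 26.4% of its words shared, chiefly with the overlapping gene Gm49342. Gm49342 lies on the same strand and reached 82.54 TPM in its highest library, so reads could be split between the genes. Adk, which phosphorylates adenosine to AMP, went from 59.6 ± 14.3 to 27.6 ± 3.24 TPM (log2 fold change −1.06, adjusted p = 0.00015 by limma), with LPS library 1 at 80.85 TPM and the other LPS libraries at 49.7 to 54.52 TPM. Aprt, which recycles adenine and was named after its values were seen, was the other gene called lower, at −1.01 (adjusted p = 1.5e-07 by limma). Slc29a1, the main equilibrative nucleoside carrier and named after its values were seen, was at −0.75 (adjusted p = 0.00013 by limma). Genes that went the other way, also named afterwards, included the AMP deaminase Ampd3 at 0.77 (adjusted p = 1.1e-05) and Ahcyl1, a relative of adenosylhomocysteinase, at 0.82 (adjusted p = 3.5e-06 by limma). The related AMP deaminase Ampd2, named afterwards too, was lower, at −0.83 (adjusted p = 4.1e-06 by limma). Hprt, also named afterwards, was at 0.07 and did not pass (adjusted p = 0.20 by limma).

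Of 31 genes of receptor coupling and effectors, 27 were tested, 1 was called higher and 5 lower, and the median was −0.14. Adcy7, an adenylyl cyclase abundant in blood cells, went from 43.7 ± 3.03 to 14.4 ± 0.834 TPM (log2 fold change −1.54, adjusted p = 6.7e-08 by limma). The calcium release channels Itpr1 (10.01 ± 1.33 to 3.25 ± 0.927 TPM, log2 fold change −1.39) and Itpr3 (24.5 ± 1.65 to 10.9 ± 1.05 TPM, log2 fold change −1.10) fell as well (adjusted p = 4.4e-05 and 1.7e-06 by limma). The related Itpr2, named after its values were seen, passed FDR in the other direction with a log2 fold change of 0.21 (adjusted p = 0.011 by limma). The gene of caspase-1, Casp1, rose from 24.2 ± 1.73 to 63.2 ± 3.36 TPM (log2 fold change 1.35, adjusted p = 1.2e-07 by limma).

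Other genes of the inflammasome downstream of P2rx7, and the G protein genes below, were named after their values were seen. Nlrp3 averaged 60.4 ± 0.953 TPM in the LPS group and 57.1 ± 3.77 TPM in the LPS + UDCA group, and its change of −0.08 on the log2 scale did not pass (95% interval −0.19 to 0.03, adjusted p = 0.17 by limma). Nek7, which binds NLRP3, rose by 0.84 (adjusted p = 5.2e-05 by limma) and the pore-forming gasdermin Gsdmd was at −0.63 (adjusted p = 2.3e-05 by limma). Pycard, the adaptor between NLRP3 and caspase-1, did not exceed 0.04 TPM in any library. Gnas, the stimulatory G protein subunit used by Adora2a and Adora2b, was at −0.08 (adjusted p = 0.047 by limma). Gnai2 was at −0.43 (adjusted p = 2.0e-05) and Gnaq at 0.55 (adjusted p = 0.0003 by limma). Gnai3 was at 0.57 (adjusted p = 0.00018 by limma), opposite to Gnai2. Gna15 was at −1.07 and called lower (adjusted p = 4.0e-05 by limma), and Gna13 was at −0.50 (adjusted p = 0.00035 by limma). Gna11, at 0.06, did not pass (adjusted p = 0.52 by limma), so the G protein genes shared no direction.

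**Figure D4:**
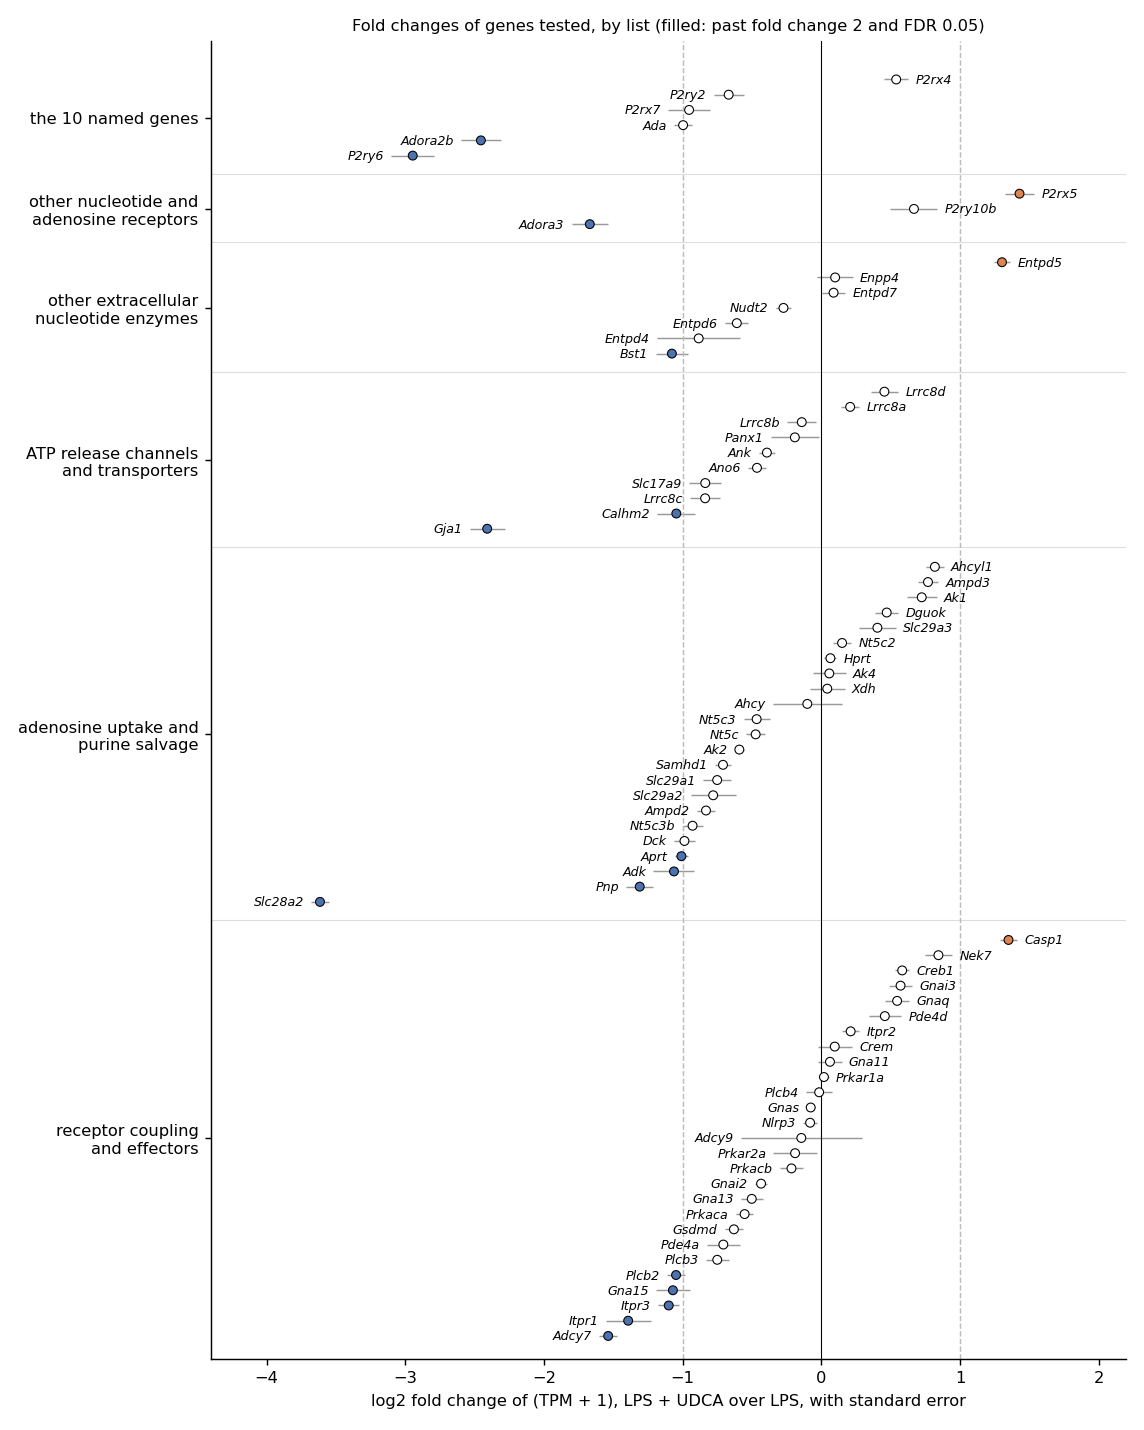
Log2 fold change of TPM + 1 (LPS + UDCA over LPS, points with SE) for the tested genes among the 10 described here and in 5 lists of related genes. Filled points passed a fold change of 2 (dashed lines) with FDR under 0.05, blue for lower and orange for higher. Slc28a2 at −3.61 and P2ry6 at −2.95 are the lowest, and P2rx5, Casp1 and Entpd5 are the filled points on the right.

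The genes whose levels were most like those of P2ry6 across the 8 libraries, among 7068 that averaged 10 TPM or more, were Cdc25b, Tyms and Idh3g. Pearson's r on log2(TPM + 1) was 0.999, 0.997 and 0.997. These values are a description over 8 libraries that fall into 2 treatment groups. Any gene whose change in that direction is large against the spread of its replicates therefore has a high r. Cdc25b, a phosphatase that starts mitosis, went from 21.7 to 1.46 TPM, the thymidylate synthase gene Tyms from 80.5 to 15.9 TPM, and Idh3g, a subunit of a mitochondrial isocitrate dehydrogenase, from 152 to 82.7 TPM. None of the 10 genes was called higher, so no such list was made for a gene that rose.

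Macrophage markers also differed between the groups. Their summed level was 4240 to 4472 TPM with LPS and 2081 to 2338 TPM with LPS + UDCA. Within this sum, Lyz2 alone fell from a mean of 1988 to 435.5 TPM. Of these 10 markers 4 were called lower (Itgam, Lyz2, Cd68 and Csf1r) and 2 called higher (Adgre1 and Fcgr1). At FDR under 0.05 alone, Cd14 was also lower, and Ptprc and Spi1 were higher. Among all genes tested 8.44% were called lower and 8.71% higher. The sum of 6 neutrophil and mast cell markers was 18.6 to 25.4 TPM with LPS and 2.72 to 9.03 TPM with LPS + UDCA, carried by S100a8 and S100a9. The part of these shifts in the changes of the 10 genes was not tested.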

How the data were processed

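The authors deposited 1 table of TPM per gene, with 4 LPS and 4 LPS + UDCA libraries as columns, kept to 2 decimals. Sequencing was on an Illumina HiSeq. The submitters' processing notes name Bowtie 0.12.2 and the builds mm10 and GRCm38. The counting program and annotation are not given in the sources used here. Rounding to 2 decimals and scaling within a library mean that low values are coarse and that a fall of abundant transcripts lifts the TPM of others.

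Groups were taken from the sample labels. Genes averaging 1 TPM or more over all libraries were fitted as log2(TPM + 1) with limma 3.58.1 in R 4.3.3 (lmFit, eBayes with a mean-variance trend), and p-values were adjusted by the Benjamini-Hochberg method over all 11796 genes tested. Calls used the thresholds of the study, a fold change of at least 2 with FDR under 0.05. The study names no test for its RNA sequencing. At these thresholds it reported more genes in each direction than the 1028 higher and 995 lower here. The calls given here are therefore not the calls of the study. Single values were compared by a 2-sided exact permutation test (70 arrangements of 8 libraries). The procedure was tested on simulated data. Alternatives changed the pseudocount, filter, scaling, trend, thresholds and libraries, and added the replicate number as a block.

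The 10 genes and all lists were chosen with earlier results of these data known. Named are the 10 genes, up to 3 genes called in each direction from each list of related genes, and the 3 genes most like the member called with the largest change. Genes named afterwards, with their values known, are marked as such. Positions, overlaps and shared 31-base words are from GENCODE M21 on GRCm38, and promoters from RefSeq on GRCm38.p6, which held entries for 8 of the 10 genes. Protein sequences were not used here. Tables and figures were made with matplotlib 3.10.9 and pandas 2.3.3 in Python 3.11.15.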

Additional observations from a re-analysis of the deposited data

Results flagged for a closer look

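In 7 of the 64 groups of 4 values examined, 1 library stood apart from the other 3 by Dixon's criterion, where chance gives about 1 in 20 groups, or 3.2 of 64. For Nt5e, 3 of the 4 values are 0 in each group, so any value above 0 meets the criterion and these 2 cases cannot be read against chance. P2ry2 was 9.86 TPM in LPS replicate 3, with 11.07 to 11.22 TPM in the others. Nt5e was 0.02 TPM in LPS replicate 2 and 0.05 TPM in LPS + UDCA replicate 3, with 0 in the others. Adora3 was 2.66 TPM in LPS replicate 3, with 3.22 to 3.31 TPM in the others. Adk was 80.85 TPM in LPS replicate 1, with 49.7 to 54.52 TPM in the others. The share of P2rx4 among P2 receptor TPM was 57.92% in LPS + UDCA replicate 3, with 60.61 to 61.0% in the others. The log2 ratio of Adora2a to Adora2b was −0.4366 in LPS + UDCA replicate 3, with −0.944 to −0.892 in the others. No cause was tested.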

How the results depend on the processing

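The fold changes of the 6 tested genes kept their direction and passed FDR 0.05 in all 94 recomputed values, with none reversed, the highest adjusted p being 0.0039 by limma. They ranged from 0.44 to 0.59 for P2rx4, −1.18 to −0.84 for P2rx7, −0.76 to −0.59 for P2ry2, −3.98 to −2.81 for P2ry6, −3.21 to −2.36 for Adora2b and −1.15 to −0.98 for Ada. The number called lower at a fold change of 2 moved more. It was 4 with pseudocounts of 0.1 or 0.01, median-of-ratios scaling or quantile normalization, 2 to 4 when single libraries were left out (4 without LPS replicate 3), and 0 where 1 TPM was required in every library.

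With no fold minimum, 5 of the 10 genes were lower and 1 higher, and at a fold of 1.5, 5 were lower. For all genes tested these settings gave 4741 higher and 3807 lower, and 2574 higher and 2076 lower. Median-of-ratios scaling gave 807 higher and 1168 lower, beside 1028 and 995. Among the other receptors, 2 were higher with no minimum and at 1.5, and 0 were higher or lower with 1 TPM in every library. Among the enzymes, 4 were lower with no minimum, 3 at 1.5, 2 with pseudocounts of 0.1 or 0.01, and 1 to 2 with single libraries left out (2 without LPS replicate 1 or LPS + UDCA replicate 2). For ATP release, no minimum gave 2 higher and 6 lower, 1.5 gave 4 lower, and leaving out libraries gave 1 to 2 lower (1 without LPS replicate 1 or 2 or LPS + UDCA replicate 4). For uptake and salvage, no minimum gave 5 higher and 13 lower, and 1.5 gave 3 higher and 11 lower. For coupling and effectors, they gave 7 higher and 13 lower, and 2 higher and 8 lower. The counts at 1.5 and with no minimum follow from the looser thresholds themselves.

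After group means were removed, 3 of the 4 same-numbered pairs of libraries correlated at 0.118 to 0.146 and 1 at −0.0354. The 12 other pairs ranged from −0.145 to 0.162, the second highest being 0.032. The highest of all was LPS replicate 1 with LPS + UDCA replicate 3. These correlations do not settle whether the numbers pair the libraries. The main tests treated the libraries as unpaired. With the replicate block, limma called 1034 genes higher and 1000 lower and no call of the 10 genes changed. For the receptor make-up, the replicate block leaves 16 sign arrangements, whose smallest p is 0.125, so no difference could pass (exact permutation test, adjusted p = 0.18 for P2rx4 share 34.93, P2ry6 share −29.4, Adora2a share 16.04, and the log2 ratios P2rx7/P2rx4 −1.493, P2ry2/P2ry6 2.278, Adora2a/Adora2b 2.525 and Nt5e/Ada 1.007). Leaving out libraries gave 12.26 to 20.44 for the Adora2a share and −5.532 to −3.05 for the P2rx7 share. By medians, 6 of 10 genes kept their rank of level with LPS + UDCA. Those that moved were Entpd1, Adora2a, Nt5e and P2ry14, all below 1 TPM. Nt5e and P2ry14 tied at a median of 0, so only Entpd1 and Adora2a changed places. Unknown depth limits what can be said of P2ry14, Nt5e, Entpd1 and Adora2a.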
